A study of Mus musculus with 11 samples.

Results

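The circadian clock genes of mouse brain nuclei were followed across 11 single-nucleus RNA libraries. They were chosen by symbol from the deposited gene list: the 10 genes Arntl, Clock, Per2, Per3, Cry1, Cry2, Ciart, Nr1d1, Nr1d2 and Dbp, of 25938 genes in all. UMI (unique molecular identifier) counts, which count captured RNA molecules, were summed per library and per deposited cell class. Levels are in CPM, UMI counts scaled to a fixed library total, with edgeR's TMM scaling, which scales libraries by a trimmed mean of the log ratios of their genes. The mice, labelled hTfR KI HOM (homozygous, with a human gene for the transferrin receptor, TfR, knocked in), received 4 weekly intravenous doses, with tissue taken 72 h after the last. ATV:BACE1 (57 mg/kg, n = 3 libraries) binds the TfR and carries no antisense oligonucleotide (ASO), and served as the control. The conjugate nonTV:Malat1 (titled RSV-ASO, 60 mg/kg, n = 3) carries an ASO against the nuclear RNA Malat1 without TfR binding. OTV:Malat1 (60 mg/kg, n = 3) carries the ASO on a TfR-binding molecule, and Malat1 ASO (2.5 mg/kg, n = 2) is the free oligonucleotide.

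Libraries carry the replicate number 1, 4 or 5 in their titles. Replicate 1 libraries were from female mice of 2.33 months (deposited batch 1), replicate 4 from males of 2.57 months (batch 3) and replicate 5 from males of 2.33 months (batch 4). Each number holds 1 library of each group, except that Malat1 ASO has replicates 1 and 5 only. The batch differs in every comparison of numbers, and anything that went with it cannot be told apart from the number. Sex differs as well between replicate 1 and the others, and age between replicate 4 and the others, so replicates 1 and 5 share the labelled age and 4 and 5 the labelled sex. The time of day at which tissue was collected is not given in the sources used here, so a difference in it between groups or batches was not tested directly. What the counts allow is a comparison of clock transcripts between the groups and between the replicate numbers.

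The clock is a feedback loop of transcription that runs in most cells. The proteins of Arntl (also called Bmal1) and Clock bind E-box sequences as a pair and switch on the Per, Cry, Ciart, Nr1d1, Nr1d2 and Dbp genes. The Per and Cry proteins then inhibit that pair, while Nr1d1 and Nr1d2 (the REV-ERB receptors) repress Arntl through ROR elements and Dbp acts through D-boxes. In mouse tissues outside the suprachiasmatic pacemaker, Nr1d1, Dbp and Per3 transcripts peak in the later part of the light phase, Per2 near its end, Cry1 later in the dark, and Arntl near the turn from dark to light. Animals killed at different times of day thus differ in the order of these transcripts.

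Promoter windows from RefSeq (GRCm38.p6, 250 bases before to 50 after an annotated start) were found for 9 of the 10 genes, in 12 windows, with no Per2 entry in the table used. They were searched on both strands for the E-box CACGTG, its variant CACGTT, the D-box TTANGTAA and the ROR elements TAGGTCA and TGGGTCA. Cry1 and Arntl are printed because their transcripts were called between replicate numbers, Ciart for its E-boxes and Per3 for its D-boxes. Capitals mark the matches, and each window reads 5′ to 3′ on the gene's strand: Arntl chr7:113207261-113207560 (plus strand), Cry1 chr10:85185005-85185304 (minus strand), Ciart chr3:95882179-95882478 (minus strand) and Per3 chr4:151044616-151044915 (minus strand).
Arntl: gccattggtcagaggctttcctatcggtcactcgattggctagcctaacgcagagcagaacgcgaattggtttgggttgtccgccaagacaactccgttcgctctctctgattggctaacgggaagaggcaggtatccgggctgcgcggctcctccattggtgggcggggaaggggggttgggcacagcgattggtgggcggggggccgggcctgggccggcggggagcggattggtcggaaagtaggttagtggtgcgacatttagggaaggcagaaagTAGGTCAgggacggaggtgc
Cry1: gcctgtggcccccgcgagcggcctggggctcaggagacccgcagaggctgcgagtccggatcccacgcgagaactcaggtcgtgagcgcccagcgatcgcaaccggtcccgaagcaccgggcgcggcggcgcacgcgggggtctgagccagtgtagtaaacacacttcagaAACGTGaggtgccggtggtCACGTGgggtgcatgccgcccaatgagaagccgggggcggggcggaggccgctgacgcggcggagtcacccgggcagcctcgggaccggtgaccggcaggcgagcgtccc
Ciart: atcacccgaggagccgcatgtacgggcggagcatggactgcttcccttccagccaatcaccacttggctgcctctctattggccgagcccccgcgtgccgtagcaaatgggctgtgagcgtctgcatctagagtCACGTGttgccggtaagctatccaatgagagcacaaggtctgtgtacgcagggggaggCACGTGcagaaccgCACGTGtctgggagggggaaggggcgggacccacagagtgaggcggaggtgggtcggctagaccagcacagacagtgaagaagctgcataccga
Per3: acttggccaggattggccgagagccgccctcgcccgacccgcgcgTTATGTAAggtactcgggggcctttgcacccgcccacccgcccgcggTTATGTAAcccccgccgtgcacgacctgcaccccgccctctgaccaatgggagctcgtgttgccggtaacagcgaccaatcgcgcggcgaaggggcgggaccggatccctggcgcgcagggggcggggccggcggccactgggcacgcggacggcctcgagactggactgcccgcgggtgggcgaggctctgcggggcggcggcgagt
Ciart held 3 E-boxes and Cry1 held 1 E-box and 1 variant. Among the other windows, Cry2 and Nr1d1 held 1 variant each and Dbp, Nr1d2, Clock and the first Arntl window held no match. Per3 held 2 D-boxes and the second Arntl window 1 ROR element, 30 bases after its start. Of all 32851 windows in the table, 7.15% hold the E-box, 4.68% the variant, 2.32% the D-box and 6.45% a ROR element. A match describes the letters and is not evidence of binding.

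The libraries held 33235994 to 43972886 UMIs from 7546 to 13840 nuclei each, 110304 nuclei in all, and 1495 of 108788 barcodes occurred in more than 1 library. Neurons made up 69.1% of the nuclei. Malat1, the targeted transcript, took 4.00 to 5.03% of UMIs in the 3 OTV:Malat1 libraries and 7.45 to 8.39% in the other 8. The metadata name the tissue cortex and the strain C57BL/6J, and the labels a posterior brain region and the knock-in. Over all nuclei, the cortical transcript Cux2 stood at 123 CPM and Tcf7l2 and Slc17a6, listed for the thalamus, at 104 and 26.4. Tcf7l2 was higher in astrocytes (420) than in neurons (77.0), so its level does not place thalamic neurons here. The cerebellar Gabra6, Pcp2 and Calb2 stood at 0.0856, 0.521 and 7.76 CPM. Of 5 transcripts listed for the suprachiasmatic nucleus, Avp and Vip stood at 15.3 and 12.3 CPM and Lhx1, Prok2 and Nms at 1.42, 1.11 and 0.0979. Avp and Vip were lower in neurons (13.4 and 10.9) than in oligodendrocytes (35.8 and 29.0), so their levels do not place pacemaker neurons here. The deposited classes carried their own markers, since for 8 of 8 classes with enough nuclei the listed markers were highest in that class. Those of the class named Glia were the choroid plexus genes Ttr, Kl and Folr1. Among the 10 clock genes, the library counts over all nuclei ran from 195 UMIs (Ciart) to 5807 (Clock).

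The clock genes were not shown to differ between dosing groups, while 3 of them stood lower in replicates 4 and 5 than in replicate 1. Those 3 were Arntl, an activator, and the inhibitors Per2 and Cry1. Replicate 1 is female and batch 1, and replicates 4 and 5 are male and batches 3 and 4, so sex and batch cannot be told apart here. Per2 differed most, being 29.1% lower in replicate 4 and 40.4% lower in replicate 5 than in replicate 1. Tests were edgeR's quasi-likelihood test on summed counts with Benjamini-Hochberg adjustment over all genes, and a gene was called at an adjusted p under 0.05. With replicate 4 against 1, 33.3% of the 21409 genes tested were called, with 5 against 1 32.3%, and with 5 against 4 18.2%. The lower calls alone were 16.5% and 14.9% in the first and the second. The 3 of 10 members in each lie near the share of all genes called, so the count of calls does not set the clock genes apart. All 3 were lower, which is above the share of lower calls, but 3 genes are few. The first and the second comparison share the replicate 1 libraries. The number of genes called for 5 against 4 fell from 3893 to 372 without ATV:BACE1 replicate 4. The labels do not say whether libraries came from separate animals, so the p-values measure the spread between these libraries.

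**Figure D1:**
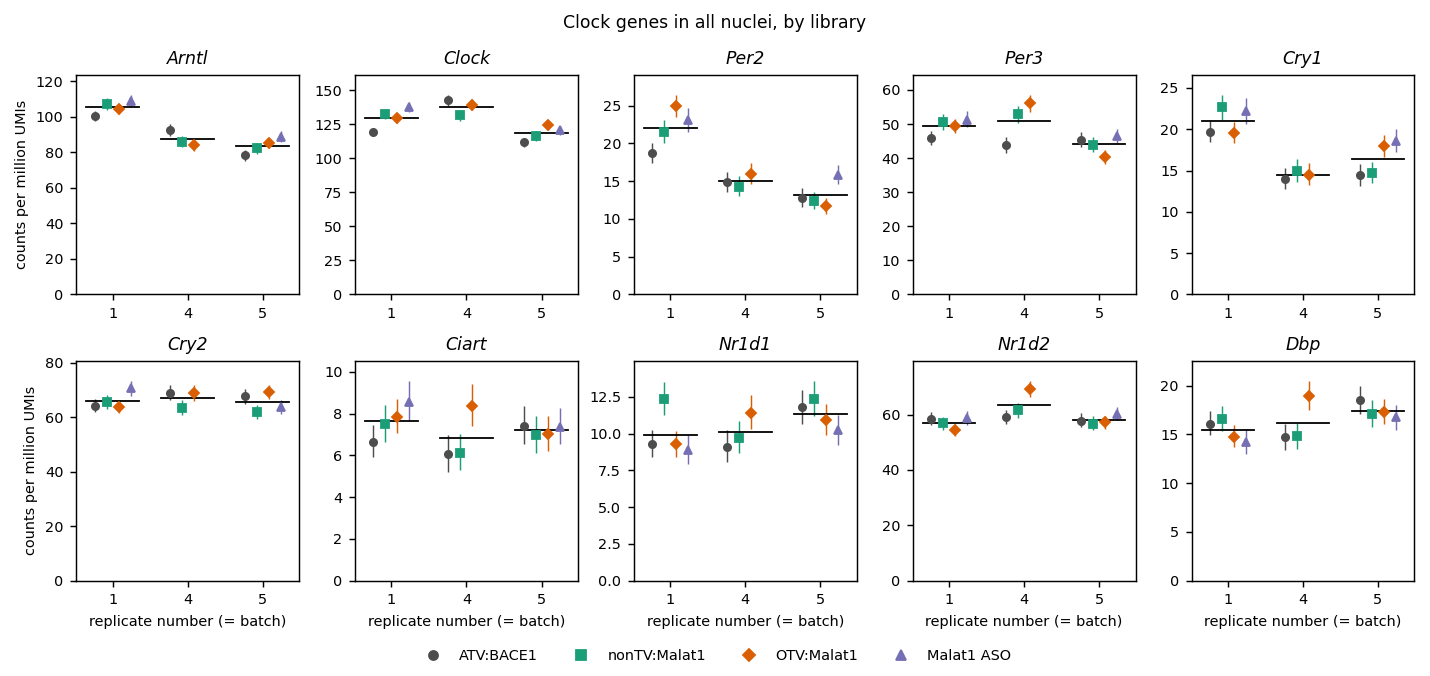
CPM (vertical axis) of each clock gene in all nuclei, by replicate number (horizontal axis). Each point is 1 library with its 95% Poisson interval, which covers counting error only, colours and shapes give the dosing group, and black lines are means. For Arntl, Per2 and Cry1 the 4 replicate 1 libraries lie above the other 7. In these genes the ranges of the dosing groups overlap, with Malat1 ASO above ATV:BACE1 of the same number in both pairs.

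Arntl, the partner of Clock in the activating pair, stood in replicate 1 at 100.5 CPM in ATV:BACE1, 107 in nonTV:Malat1, 104 in OTV:Malat1 and 109 in Malat1 ASO. In replicate 4 it was 92.5, 86.1 and 83.9 CPM in ATV:BACE1, nonTV:Malat1 and OTV:Malat1, and in replicate 5 it was 78.3, 82.2, 85.1 and 88.8 CPM in the 4 groups in the same order. Every replicate 1 library lay above every other library, and replicates 4 and 5 overlapped. The log2 difference was -0.24 ± 0.06 (SE) for replicate 4 against 1 (edgeR adjusted p = 0.00852) and -0.33 ± 0.05 for 5 against 1 (adjusted p = 0.000682). The first of these calls was lost without nonTV:Malat1 replicate 4 (adjusted p = 0.0606) and without OTV:Malat1 replicate 4 (0.0502).

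Clock, Arntl's partner and little rhythmic in most tissues, ordered the libraries differently. Its levels were 119, 132, 129.6 and 138 CPM in replicate 1, 143, 132 and 139.5 CPM in replicate 4, and 112, 117, 124 and 121 CPM in replicate 5. Replicate 5 lay below replicate 4 without overlap, and replicate 1 overlapped both. Clock was called only for replicate 5 against 4 among the 3 comparisons in all nuclei, at log2 -0.24 ± 0.06 (edgeR adjusted p = 0.0187). That call was lost with scaling to total counts (-0.14, adjusted p = 0.0566), and also without ATV:BACE1 replicate 4 (adjusted p = 0.114), ATV:BACE1 replicate 5 (0.0637) or nonTV:Malat1 replicate 5 (0.0504). Scaling to total counts moved the median log2 difference of all genes in this comparison from 0.01 to 0.11, and Clock stayed below 0 in that setting.

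Per2, an inhibitor of the pair whose gene also answers directly to light and other signals, had the widest range of the 10. Its levels were 18.7, 21.6, 25.0 and 23.1 CPM in replicate 1, 14.9, 14.3 and 16.0 CPM in replicate 4, and 12.8, 12.4, 11.7 and 15.8 CPM in replicate 5. The highest library was 2.13 times the lowest, against a median of 1.38 times over the 12831 genes with a mean of at least 5 CPM. Replicate 1 was again above all others. Per2 differed by log2 -0.50 ± 0.10 for replicate 4 against 1 (edgeR adjusted p = 0.00275) and -0.75 ± 0.09 for 5 against 1 (adjusted p = 0.000101). For 5 against 4 the value was -0.25 ± 0.10 (adjusted p = 0.103).

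Cry1, the later of the cryptochrome inhibitors, stood at 19.7, 22.7, 19.6 and 22.2 CPM in replicate 1, 14.0, 15.0 and 14.5 CPM in replicate 4, and 14.4, 14.7, 17.97 and 18.6 CPM in replicate 5. All 4 libraries of replicate 1 were higher than the rest, and replicate 5 split into a lower pair (ATV:BACE1 and nonTV:Malat1) and a higher pair (OTV:Malat1 and Malat1 ASO). The log2 differences were -0.49 ± 0.09 for replicate 4 against 1 (edgeR adjusted p = 0.00175) and -0.36 ± 0.08 for 5 against 1 (adjusted p = 0.00478). The Per2 and Cry1 calls in all nuclei and in neurons, and those of Arntl for replicate 5 against 1, were kept in each alternative setting and with each library left out.

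The remaining 6 genes passed no test between replicate numbers in all nuclei. Per3, a Per family member with strong rhythms in tissues, ranged from 40.3 CPM (OTV:Malat1 replicate 5) to 56.1 (OTV:Malat1 replicate 4). Cry2 was the flattest, at 61.8 to 70.6 CPM, and 3.71% of the genes at 5 CPM or more had a smaller SD of log2 CPM over the libraries. Ciart, a repressor of the activating pair, ranged from 6.05 to 8.56 CPM. Nr1d1, the stronger of the Arntl repressors, ranged from 8.87 to 12.4 CPM. Nr1d2 ranged from 54.4 to 69.3 CPM, and its replicate 4 libraries (59.1, 61.5 and 69.3) lay above those of replicate 1 (58.4, 56.8, 54.4 and 58.7), at log2 0.16 ± 0.06 (edgeR adjusted p = 0.0664).

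Dbp, a D-box activator and a direct readout of the activating pair, ranged from 14.2 to 19.0 CPM. In replicate 1 it was 16.1, 16.6, 14.8 and 14.2 CPM, in replicate 4 14.7, 14.8 and 19.0, and in replicate 5 18.5, 17.1, 17.3 and 16.7. Replicate 5 lay above replicate 1 without overlap, at log2 0.17 ± 0.09 (edgeR adjusted p = 0.143), and the high replicate 4 library was OTV:Malat1. Without that library Dbp was called in both comparisons of replicate 5, at log2 0.18 against replicate 1 (adjusted p = 0.0487) and 0.29 against replicate 4 (adjusted p = 0.0488). Nr1d1 was then called for 5 against 4 as well, at log2 0.37 (adjusted p = 0.0477).

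Between dosing groups, 0 of the 10 genes were called in any of the 5 comparisons in all nuclei by edgeR, DESeq2 or edgeR with a block for the replicate number. At an unadjusted p under 0.05 there were 0 of 50 tests with edgeR, 0 with DESeq2 and 2 with the block (Per2 and Cry1, Malat1 ASO against ATV:BACE1). Among all genes, edgeR without the block gave 133 to 375 of 21409 per comparison, below the share expected by chance at that threshold. That model has no term for the replicate number, so differences between numbers add to its spread. All genes together gave 0% called over 107045 tests in these 5 comparisons. Malat1 itself was thus not called for OTV:Malat1 against any group, with or without the block, though its share of UMIs was lower in every OTV:Malat1 library. These fits can miss such a difference, so 0 calls do not show that the clock genes were alike between groups. The largest log2 difference of a clock gene was 0.34 ± 0.22 (Cry1, Malat1 ASO against ATV:BACE1, 20.4 against 16.0 CPM), a comparison in which the Malat1 ASO group has no replicate 4. Over all 50 tests the SE ran from 0.08 to 0.32, and with the block from 0.06 to 0.13. With the block the 2 named differences were 0.29 ± 0.12 (Per2, edgeR adjusted p = 0.502) and 0.25 ± 0.10 (Cry1, adjusted p = 0.511). Malat1 ASO was above the ATV:BACE1 library of the same number in both pairs, by log2 0.31 and 0.30 for Per2 and by 0.17 and 0.37 for Cry1. Arntl (0.12 and 0.18) and Clock (0.21 and 0.11) were likewise higher in both pairs, as were Per3 and Nr1d2 by 0.01 to 0.16. Dbp (-0.18 and -0.15) and Nr1d1 (-0.07 and -0.20) were lower in both, and Cry2 and Ciart differed in sign between the pairs. Among all genes the block called 4 in that comparison and 0 in the other 4. Within the 8 classes, 0 of 275 tests were called, with 6 at an unadjusted p under 0.05 (1 with DESeq2 and 10 with the block, each of which also called 0), and all genes gave 0.00205% of 389585 tests. Without the filter on low counts 1 was called, Nr1d1 in pericytes for OTV:Malat1 against Malat1 ASO.

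**Figure D2:**
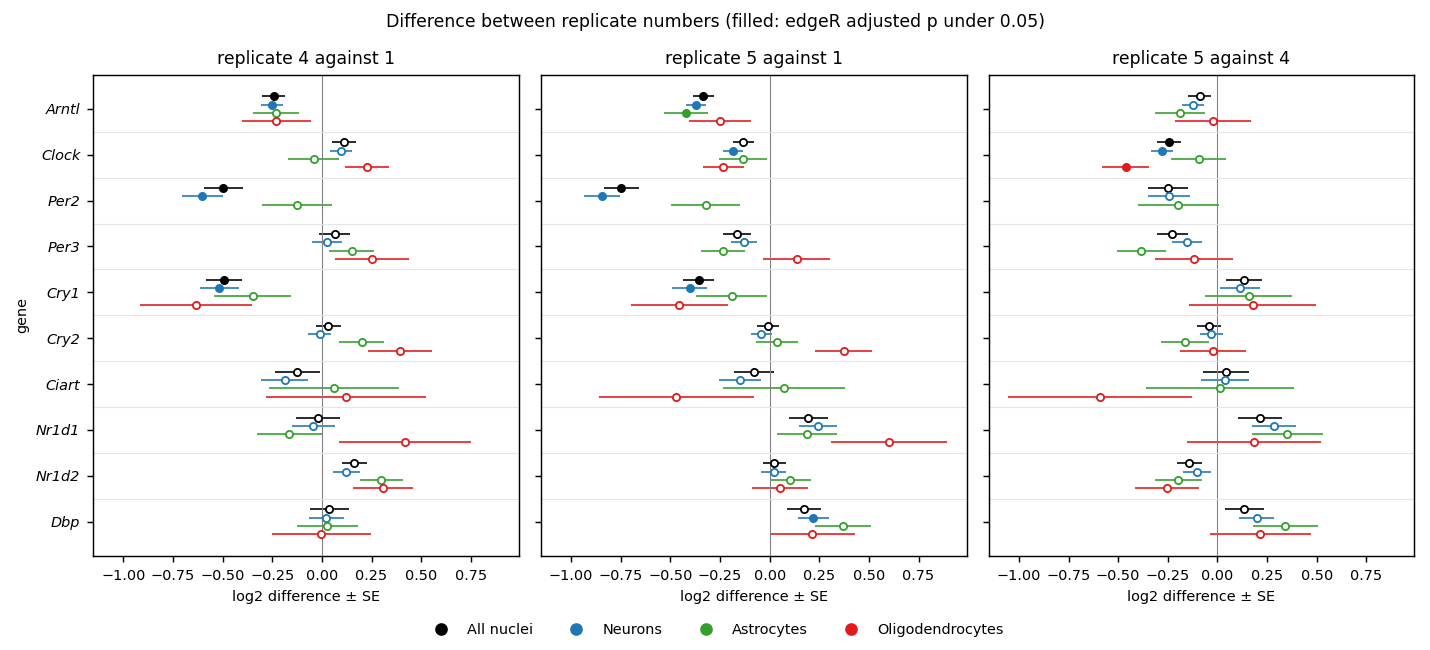
Log2 difference between replicate numbers (horizontal axis) for each clock gene (vertical axis) in all nuclei and in the 3 largest classes. Bars are SE and filled points passed an edgeR adjusted p under 0.05. In the 2 comparisons with replicate 1, Arntl, Per2 and Cry1 lie left of 0 wherever they were fitted (Per2 was not in oligodendrocytes), and Clock lies left of 0 for replicate 5 against 4.

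The share of neurons among nuclei differed by replicate number: 63.3 ± 2.50% (SD, n = 4) in replicate 1, 67.0 ± 2.78% (n = 3) in replicate 4 and 74.9 ± 4.31% (n = 4) in replicate 5. Astrocytes ran the other way, at 14.3 ± 2.58%, 13.0 ± 1.43% and 8.44 ± 1.54%, and in all nuclei 4 of 4 astrocyte markers were called lower in replicate 5 than in 1. In sums over all nuclei, fewer nuclei of a class and less RNA per nucleus cannot be told apart. In neurons alone Arntl, Per2 and Cry1 were again called in both comparisons with replicate 1. Their log2 differences in neurons were -0.25 ± 0.06, -0.60 ± 0.10 and -0.52 ± 0.10 for replicate 4 against 1 (edgeR adjusted p = 0.00454, 0.000853 and 0.00183). For 5 against 1 they were -0.37 ± 0.05, -0.84 ± 0.09 and -0.40 ± 0.09 (adjusted p = 0.000148, 3.21e-05 and 0.00334). In size, each of these differences was at or above its value in all nuclei.

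Neurons added Clock and Dbp for replicate 5 against 1, which made 5 of 10 members called beside 33.1% of all genes. For replicate 4 against 1 they were 3 of 10 beside 33.6%, and for 5 against 4 1 of 10, Clock, beside 20.9%. Neuronal Dbp was 13.7, 13.5, 12.3 and 12.1 CPM in replicate 1, 12.8, 12.1 and 15.1 in replicate 4, and 15.3, 15.3, 15.1 and 14.5 in replicate 5. The 4 replicate 5 libraries lay close together and above replicate 1, with OTV:Malat1 replicate 4 among them. The difference of 0.22 ± 0.08 (edgeR adjusted p = 0.0474) was lost in 13 of 18 alternatives, where the adjusted p reached 0.178. Of the 11 libraries left out in turn, the call was kept only without nonTV:Malat1 replicate 4 or OTV:Malat1 replicate 4. Neuronal Clock differed by -0.18 ± 0.05 (adjusted p = 0.0131) for 5 against 1, lost in 6 of 18 alternatives. Those were total counts (0.0626), also with Malat1 left out (0.0762), and the fits without nonTV:Malat1 replicate 1 (0.0872) or 5 (0.0579) or Malat1 ASO replicate 1 (0.0518) or 5 (0.0516). For 5 against 4 it differed by -0.28 ± 0.06 (adjusted p = 0.00626), which was lost without ATV:BACE1 replicate 4 (0.0791).

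In astrocytes, which hold self-sustained clocks of their own, Arntl alone was called among the 10, for replicate 5 against 1. It stood at 126, 140.4, 143 and 131 CPM in replicate 1, 106, 124 and 109 CPM in replicate 4, and 91.6, 109, 82.6 and 119 CPM in replicate 5. Replicate 1 lay above every other library here too. The log2 difference was -0.42 ± 0.11 (edgeR adjusted p = 0.00819), lost without OTV:Malat1 replicate 1 (0.0756) or replicate 5 (0.0765). The 1 of 10 compares with 13.7% of all genes, and 0 of 10 were called for 4 against 1 (8.62%) and for 5 against 4 (6.67%). Of those tests 1 and 2 had an unadjusted p under 0.05, and DESeq2 called 0 in both as well. Astrocytic Dbp was 42.4, 41.0, 39.7 and 38.3 CPM in replicate 1, 33.02, 43.7 and 48.9 in replicate 4 and 63.5, 43.5, 56.4 and 46.5 in replicate 5. Replicate 5 was above replicate 1 without overlap, at 0.37 ± 0.14 (adjusted p = 0.0793).

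In oligodendrocytes, where Per2 did not pass the count filter, Clock was called for replicate 5 against 4, the only call among 9 members. It stood at 147, 165, 171 and 183 CPM in replicate 1, 199.8, 170.2 and 196 CPM in replicate 4, and 126, 151, 136 and 152 CPM in replicate 5. Replicate 5 lay below replicate 4 in every library. The difference of -0.46 ± 0.12 (edgeR adjusted p = 0.0176) was lost in 6 of 18 alternatives. In nuclei of at least 1000 UMIs it was -0.27 (adjusted p = 0.369), and the call was also lost when replicate 4 of OTV:Malat1 (0.102), its replicate 5 (0.0718) or replicate 4 of ATV:BACE1 (0.191) was removed, and with total counts (0.0666 with or without Malat1). All genes gave 6.29% in that comparison and 10.3% in each of the others, in which 0 of 9 members were called by edgeR or DESeq2 and 3 in each had an unadjusted p under 0.05 by edgeR.

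Over the 8 classes together, 55 pairs of a member and a class could be tested. For replicate 4 against 1 there were 5 calls beside 12.8% of all tests, for 5 against 1 6 beside 13.9%, and for 5 against 4 2 beside 7.81%. Most calls behind the shares were neuronal, 6961 of 9956 for 4 against 1 and 6855 of 10836 for 5 against 1, so they do not stand for the smaller classes. DESeq2 called 3, 5 and 2 of the member pairs. The 2 edgeR calls not yet named were Per3 in leptomeningeal cells (log2 0.80 ± 0.22, edgeR adjusted p = 0.0383) and Nr1d2 in pericytes (1.12 ± 0.27, adjusted p = 0.0427), both higher in replicate 4 than in 1. In that comparison 165 of 6529 genes were called in leptomeningeal cells and 32 of 6189 in pericytes. Nr1d2 in pericytes was 64.7, 72.3, 74.2 and 64.4 CPM in replicate 1 and 129.5, 171 and 152 CPM in replicate 4, on 15 to 40 UMIs a library. The ranges were apart, yet this call was lost in 8 of 17 alternatives and that of Per3 in 14 of 18, in both cases without any 1 of most of the replicate 1 and replicate 4 libraries. DESeq2 called neither of the 2. The class named pericytes also held the endothelial transcripts Flt1 and Cldn5 at 4281 and 2178 CPM, against 5558 and 2390 in endothelium, and their part in this result was not tested.

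Whether a class differed from neurons in its change was tested with limma on the log2 level of the class minus that of neurons in the same library. Over astrocytes and oligodendrocytes and the 3 comparisons 1 of 57 member tests was called, beside 2.68% of all tests, so the count does not exceed the share over all genes. This was Cry2 in oligodendrocytes for replicate 5 against 1, where the difference of changes was 0.41 ± 0.12 (limma adjusted p = 0.0398). Oligodendrocyte Cry2 was 36.2, 34.2, 37.8 and 42.7 CPM in replicate 1 and 52.3, 47.6, 56.0 and 41.2 in replicate 5, while neuronal Cry2 was 64.1, 64.8, 63.5 and 69.5 and then 65.3, 59.4, 66.9 and 62.8. In oligodendrocytes replicate 5 lay above replicate 1 in every group but Malat1 ASO, and in neurons the sets overlapped. The call was lost in nuclei of at least 1000 UMIs (0.41, adjusted p = 0.126) and without any 1 of the 6 ATV:BACE1, nonTV:Malat1 and OTV:Malat1 libraries of replicates 1 and 5 (adjusted p up to 0.150). For Arntl the difference of changes between astrocytes and neurons was 0.03 ± 0.11 and -0.06 ± 0.10 in the comparisons with replicate 1. For Per2 it was 0.49 ± 0.20 (limma adjusted p = 0.487) and 0.50 ± 0.18 (adjusted p = 0.131), so a smaller change in astrocytes than in neurons was not shown.

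A phase index was computed for each library as a description, without a test. It is the mean log2 level of Dbp, Per3, Nr1d1, Nr1d2, Ciart and Per2 minus that of Arntl. Each gene was centred on its mean over the 11 libraries. A high value means that these genes stood high relative to Arntl and a low one the reverse, compared with the other libraries only. Whether the index orders libraries by phase was not tested. Its genes did not all move together, as Dbp followed the index (r = 0.84) and Per2 ran against it (r = -0.59). The value has no clock time, since the files hold no time series. In all nuclei the 4 replicate 1 libraries were at -0.16 (ATV:BACE1), -0.10 (nonTV:Malat1), -0.12 (OTV:Malat1) and -0.18 (Malat1 ASO). Replicate 4 was at -0.15, 0.02 and 0.30 in ATV:BACE1, nonTV:Malat1 and OTV:Malat1. Replicate 5 was at 0.22, 0.11, 0.00 and 0.05 in the 4 groups.

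Replicate 1 was thus tightly placed and low, replicate 5 was at or above 0, and the 3 libraries of replicate 4 spanned nearly the whole range. By replicate number the mean was -0.14 ± 0.03 (SD, n = 4), 0.06 ± 0.23 (n = 3) and 0.10 ± 0.10 (n = 4). By dosing group it was -0.03 ± 0.22 in ATV:BACE1 and 0.01 ± 0.10 in nonTV:Malat1 (n = 3 each). OTV:Malat1 stood at 0.06 ± 0.22 (n = 3) and Malat1 ASO at -0.06 ± 0.16 (n = 2). In all nuclei these group means differed by less than the spread within groups, which includes the differences between replicate numbers. Within a number, Malat1 ASO was below ATV:BACE1 in both pairs, and nonTV:Malat1 and OTV:Malat1 were each above it in replicates 1 and 4 and below it in 5. The mean of the 6 genes by itself was 0.06 ± 0.06, -0.02 ± 0.16 and -0.04 ± 0.05 in replicates 1, 4 and 5. For these 6 genes replicate 1 was thus not below replicate 5, and its low index came through Arntl. Per2 and Ciart had their highest means in replicate 1, where Arntl was highest, while Dbp and Nr1d1 had theirs in replicate 5 and Per3 and Nr1d2 in replicate 4.

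**Figure D3:**
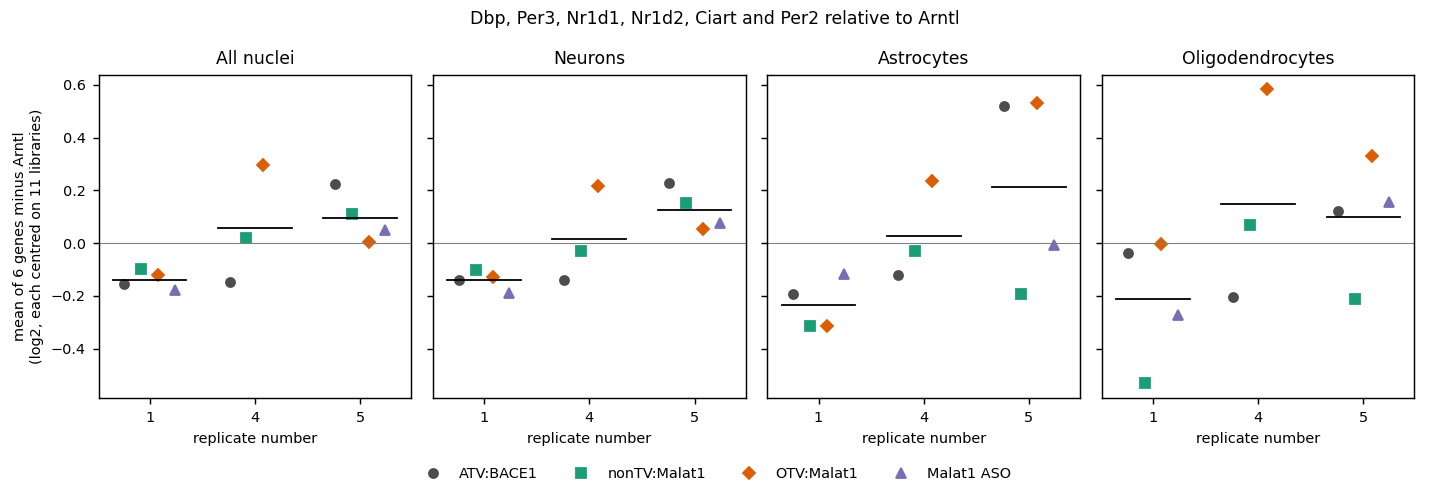
Mean centred log2 level of 6 clock genes minus that of Arntl (vertical axis, log2) by replicate number (horizontal axis) in all nuclei and 3 classes. Each point is 1 library, colours and shapes give the dosing group and black lines are means. The replicate 1 libraries lie below 0 in each panel, and OTV:Malat1 replicate 4 lies well above ATV:BACE1 replicate 4.

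Within replicate 4 the OTV:Malat1 library was above ATV:BACE1 for Dbp (log2 0.37), Per3 (0.36), Ciart (0.47), Nr1d1 (0.32), Nr1d2 (0.23) and Per2 (0.10), and below it for Arntl (-0.14). In replicate 5 the same ratio was below 0 for all 6, from -0.17 (Per3) to -0.02 (Nr1d2), and above 0 for Arntl (0.12). In replicate 1 it was positive for Per3, Ciart and Per2 and negative for Dbp, Nr1d1 and Nr1d2. The contrast between OTV:Malat1 and ATV:BACE1 thus took different directions in single pairs of libraries, each without a replicate.

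The same index by class had its lowest mean in replicate 1, where Arntl was highest. In neurons it was -0.14 ± 0.04, 0.02 ± 0.18 and 0.13 ± 0.08 in replicates 1, 4 and 5. In astrocytes it was -0.23 ± 0.10, 0.03 ± 0.19 and 0.21 ± 0.37, with the replicate 5 libraries from -0.19 (nonTV:Malat1) to 0.52 (ATV:BACE1) and 0.53 (OTV:Malat1). In oligodendrocytes it was -0.21 ± 0.24, 0.15 ± 0.40 and 0.10 ± 0.23, on as few as 2 UMIs of Ciart and 3 of Per2 in a library. Replicate 1 overlapped replicate 4 in each class, and replicate 5 in astrocytes and oligodendrocytes. The mean of the 6 genes without Arntl was 0.07, -0.05 and -0.03 in neurons, highest in replicate 1. It was -0.007, 0.001 and 0.007 in astrocytes and -0.06, 0.07 and 0.01 in oligodendrocytes. By dosing group the oligodendrocyte index was 0.30 ± 0.30 in OTV:Malat1 and -0.22 ± 0.30 in nonTV:Malat1 (SD, n = 3 each). The mean of the 6 genes alone was 0.18 ± 0.09 and -0.21 ± 0.05 there, and 0.08 ± 0.02 in ATV:BACE1 and -0.06 ± 0.09 in Malat1 ASO. For these 6 genes the 3 nonTV:Malat1 libraries thus lay below the others in oligodendrocytes, a difference picked out from the values. The mean itself was not tested. Singly, 0 of 9 members were called there by edgeR for nonTV:Malat1 against ATV:BACE1 or OTV:Malat1 against nonTV:Malat1, and 0 had an unadjusted p under 0.05. OTV:Malat1 replicate 4 was above ATV:BACE1 replicate 4 in all 3 classes. Nuclei of other classes carried neuronal RNA, since the 4 neuronal markers stood in astrocytes at a median of 9.61% and in oligodendrocytes at 11.4% of their neuronal level, and the part of this in the class values was not tested.

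Levels also differed between classes, given here as a description of the mean over 11 libraries with SD, on CPM of the class's own UMIs without TMM scaling. Per3 was highest in leptomeningeal cells (133 ± 40.2) and astrocytes (124 ± 19.8), which overlapped, and the astrocyte range lay apart from that of the class named Glia (63.2 ± 15.9). Neurons followed at 43.6 ± 3.16. Oligodendrocytes had the lowest mean at 26.9 ± 3.77 and overlapped endothelium (27.7 ± 14.0) and microglia (29.0 ± 18.6). Cry2 was highest in astrocytes (122 ± 8.47), with a range apart from the next class (71.1 ± 13.0), and stood at 64.5 ± 3.46 in neurons. Clock had its highest mean in oligodendrocytes (163 ± 19.9) and its lowest in astrocytes (84.3 ± 8.89). Arntl had its lowest mean in oligodendrocytes (35.5 ± 4.63), against 94.3 ± 11.01 in neurons and 116 ± 17.8 in astrocytes. Clock in oligodendrocytes overlapped leptomeningeal cells, and Clock in astrocytes and Arntl in oligodendrocytes each overlapped microglia.

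The REV-ERB gene Nr1d1 and its fellow output gene Dbp had their lowest means in neurons, at 8.53 ± 1.26 and 13.9 ± 1.76 CPM, and overlapped with oligodendrocytes in both. In pericytes they reached 65.1 ± 36.6 and 54.4 ± 24.5, in astrocytes 31.7 ± 6.61 and 45.5 ± 10.3, and pericytes overlapped with the next class in both. Nr1d2 ran from 53.5 ± 8.21 in oligodendrocytes to 137 ± 37.5 in leptomeningeal cells, and each neighbour in that order overlapped. Per2 was 29.0 ± 9.99 in leptomeningeal cells, 28.3 ± 4.92 in astrocytes and 16.8 ± 4.93 in neurons. In endothelium it gave 4 UMIs in all, with 8 of 11 libraries at 0. Cry1 and Ciart overlapped between all neighbouring classes, with means of 12.1 to 25.9 and 3.77 to 7.60 CPM.

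**Figure D4:**
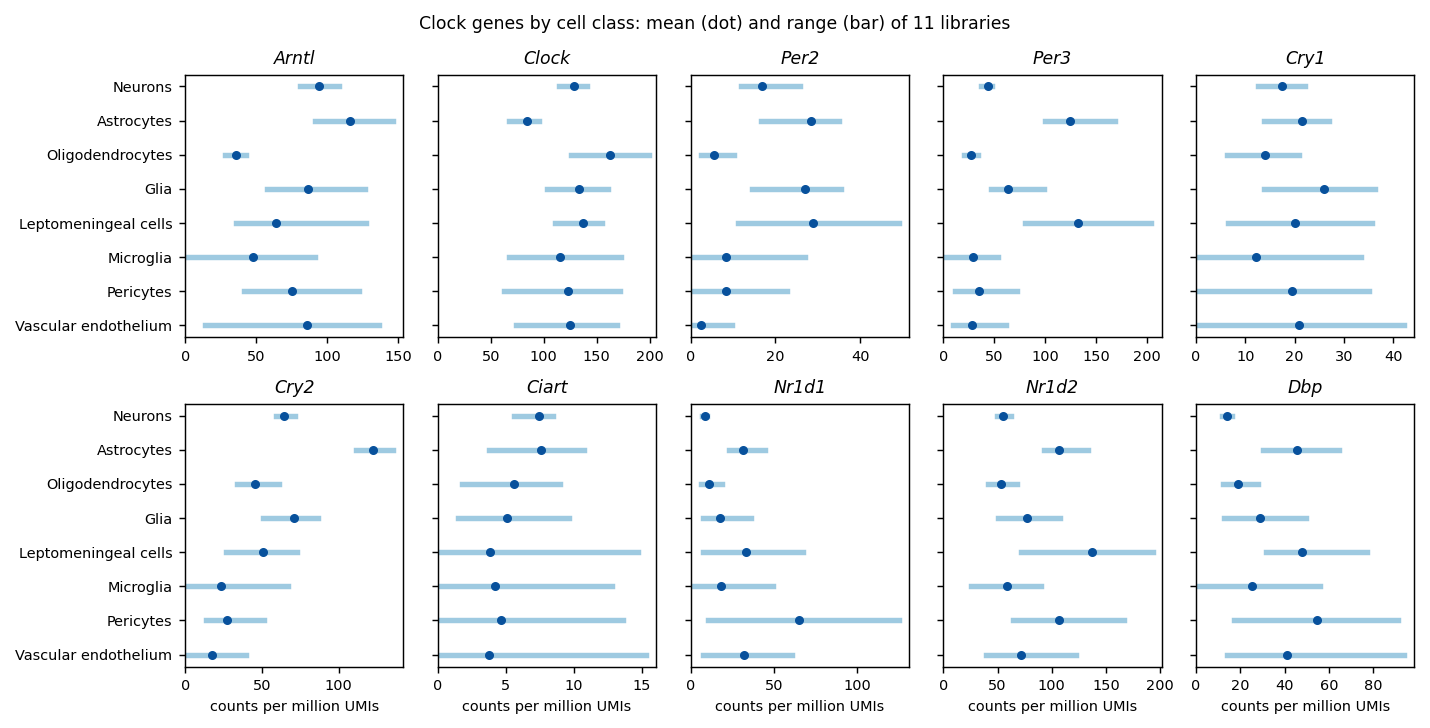
CPM of the class's UMIs (horizontal axes) for each clock gene in 8 classes (vertical axes). Dots are means and bars the range of 11 libraries. Per3 and Cry2 are high in astrocytes, Clock is high and Arntl low in oligodendrocytes, and Nr1d1 and Dbp have their lowest means in neurons.

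The other genes of the clock pathway, a list of 17, gave 8 calls in each comparison with replicate 1 in all nuclei. Lower in replicate 4 were Per1 (log2 -0.31), the E-box repressors Bhlhe40 (-0.56) and Bhlhe41 (-0.44), the D-box repressor Nfil3 (-0.68) and the kinase gene Csnk1e (-0.36). Higher were the D-box activator Hlf (0.24), the ubiquitin ligase gene Fbxl21 (0.49) and Rorb (0.25), an activator at ROR elements. Lower in replicate 5 than in 1 were Per1 (-0.51), Bhlhe40 (-0.39), Bhlhe41 (-0.55), Csnk1e (-0.24), the Clock relative Npas2 (-0.26), the Dbp relative Tef (-0.20) and Btrc (-0.19). Only Fbxl21 was higher among the 17 (0.51). For replicate 5 against 4 Nfil3 was higher (0.58) and Rora, Rorb and Btrc lower (-0.21, -0.25 and -0.22).

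The median log2 difference of the 17 was -0.05, -0.07 and 0.02 in the 3 comparisons, beside 0.01 for all genes in each. Their call shares of 8, 8 and 4 of 17 stand beside the backgrounds given above. The 7 lower calls of the second comparison became 3 without nonTV:Malat1 replicate 1 or 5 and 4 without Malat1 ASO replicate 1 or 5. The higher calls of the first went from 3 to 1 without OTV:Malat1 replicate 4. Those for 5 against 4 went to 0 without ATV:BACE1 replicate 4 and to 3 higher and 1 lower with total counts. Per1, the Per family member most responsive to acute signals, was 33.8 ± 5.19 CPM (SD, n = 4) in replicate 1, 25.0 ± 2.09 (n = 3) in replicate 4 and 23.8 ± 4.67 (n = 4) in replicate 5. Between dosing groups edgeR called 0 of the 85 tests of the list in all nuclei, with 1 at an unadjusted p under 0.05.

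Activity, temperature and corticosteroids also change clock transcripts such as Per1 and Per2, so the genes that answer to them were counted, beside 33.3, 32.3 and 18.2% of all genes called for replicate 4 against 1, 5 against 1 and 5 against 4. Of 8 immediate-early genes 8 were lower in replicate 4 than in 1 (median log2 -1.24), 1 was lower in 5 than in 1 (Nr4a1, -0.32), and 8 were higher in 5 than in 4 (median 1.04). Without ATV:BACE1 replicate 4 the last of these counts was 3, while the first was 7 or 8 in each alternative. The count for 5 against 1 was 3 without ATV:BACE1 replicate 4 or either Malat1 ASO library, and 2 without replicate 5 of ATV:BACE1 or replicate 4 of OTV:Malat1. Junb was 45.4 ± 17.8 CPM in replicate 1, 12.9 ± 0.942 in replicate 4 and 40.3 ± 13.0 in replicate 5. Arc and Fos had the same order of sets, at 27.2, 6.96 and 19.8 and at 12.3, 4.50 and 9.70 CPM.

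Of 9 heat and cold responsive genes 5 were lower in replicate 4 than in 1 (Hspa5, Hsph1, Dnajb1, Hspa8 and Rbm3), 2 in 5 than in 1 (Hsph1 and Rbm3), and 2 were higher in 5 than in 4 (Dnajb1 and Hspa8). Both counts of 2 are near or below the share of all genes called, and Cirbp, Hspa1a and Hspa1b were called in none of the 3. Rbm3, a cold-induced RNA-binding protein gene, differed by -0.27 and -0.36 in the comparisons with replicate 1. Of 9 corticosteroid-responsive genes Tsc22d3 (-0.55), Cdkn1a (-0.99) and Errfi1 (-0.46) were lower in replicate 4 than in 1, and the receptor gene Nr3c1 higher (0.19). Tsc22d3 (-0.59), Cdkn1a (-0.40), Sgk1 (-0.25), Pdk4 (-0.72) and Zbtb16 (-0.32) were lower in 5 than in 1. For 5 against 4, Errfi1 and Cdkn1a were higher and Nr3c2, Sgk1 and Nr3c1 lower, counts that ranged over the alternatives from 0 to 2 higher and from 0 to 4 lower. Fkbp5 was called in none of the 3. Without ATV:BACE1 replicate 4 neither list had a call for 5 against 4, and the 5 corticosteroid genes lower in 5 than in 1 became 2 without OTV:Malat1 replicate 1 or 5 and 3 without nonTV:Malat1 replicate 5. The heat and cold list ranged over the alternatives from 3 to 8 lower for replicate 4 against 1 and from 1 to 3 for 5 against 1. For 5 against 4 it ranged from 0 to 4 higher.

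Between dosing groups, 0 genes of these 3 lists were called by edgeR in all nuclei, with or without the block, and the lowest adjusted p was that of Fkbp5, a co-chaperone of the glucocorticoid receptor, at 48.5 and 51.2 CPM in the Malat1 ASO libraries and at most 41.8 CPM in the other 9. Its log2 difference from ATV:BACE1 was 0.56 ± 0.12 (edgeR adjusted p = 1.00), and with the block 0.59 ± 0.09 (adjusted p = 0.0571). Tsc22d3 stood at 26.4 ± 2.95 CPM in Malat1 ASO (SD, n = 2) and 16.1 ± 2.98 in ATV:BACE1 (n = 3), and Zbtb16 at 124 ± 30.2 and 90.6 ± 8.44, with the block at adjusted p = 0.222 and 0.291 (edgeR). Per1 of the clock list stood at 35.6 ± 7.13 and 23.9 ± 3.86 CPM in these groups, a log2 difference of 0.57 ± 0.22 (edgeR adjusted p = 1.00) and, with the block, 0.55 ± 0.08 (adjusted p = 0.0505). Fkbp5 and Per1 were higher in both Malat1 ASO libraries than in each of the 3 ATV:BACE1 libraries, and neither passed the threshold. Of the immediate-early genes Junb, Arc, Egr1 and Npas4 were lower in OTV:Malat1 and in nonTV:Malat1 than in ATV:BACE1 at an unadjusted p under 0.05 with the block and not after adjustment. The part of these genes in the clock gene differences was not tested.

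The genes whose level followed the phase index most closely over the 11 libraries were listed as a description, with 12821 genes ranked and the same libraries and depths behind each point. Notch3 (r = 0.90), Rfc3 (0.89), Gm37640 (0.88), Ttc23 (0.87) and 1700019D03Rik (0.86) ranked highest. Acad8 (-0.92), Txnrd2 (-0.91), Gpr108 (-0.86), Zfyve19 (-0.85) and Ptgfrn (-0.85) ranked lowest. Of the clock genes themselves, Dbp had r = 0.84, Nr1d1 0.67 and Nr1d2 0.57. Ciart had 0.22, Per3 0.16, Per2 -0.59 and Arntl -0.83. Each of these 7 genes is a part of the index, and Per2 ran against it although it is counted in its favour. Cry1 (-0.63), Clock (-0.32) and Cry2 (-0.01) are not in the index.

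Whether reads of overlapping genes were told apart is not known for 7 of the 10, since the use of strand in counting is not given in the sources used here. In the GENCODE vM21 annotation (GRCm38), Per3 overlaps Camta1 and Clock overlaps a pseudogene and Gm43658 on their own strand. On the other strand Arntl overlaps Gm45355, Nr1d1 overlaps Thra, Dbp overlaps Sphk2, Ciart overlaps C920021L13Rik and Cry2 overlaps D930015M05Rik. Per2 (chr1:91415982-91459324), Cry1 (chr10:85131700-85185064) and Nr1d2 (chr14:18204054-18239127), all on the minus strand, overlap no other annotated gene. The 2 genes that differed most between replicate numbers in all nuclei, Per2 and Cry1, are thus free of this limit.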

How the data were processed

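Single-nucleus RNA was measured in 11 libraries. Whole-number UMI counts per gene and nucleus and the mitochondrial percent of each nucleus were deposited by the authors, with a predicted class, a doublet call and a batch number per nucleus. Per the submitters' processing notes, Cell Ranger 5.0.0, Seurat 4 and mm10 were used. Counts were summed per library and per class with at least 20 nuclei in every library (8 classes). All deposited nuclei were kept, called doublets included (7.06 to 16.0% of nuclei per library).

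Sums were tested with edgeR 4.0.16 (quasi-likelihood, TMM, low-count filter by group) over 11 libraries, with dosing group alone for 5 dosing comparisons and group plus replicate number for 3 comparisons of numbers. Class differences used limma 3.58.1 on log2 CPM with a prior count of 2. P-values were adjusted over all genes tested in a fit. DESeq2 1.42.0, other scalings, no filter, doublets left out, nuclei of at least 1000 UMIs, a replicate block and leaving out each library were tried. The calling steps were tested on simulated data. Those for the dosing comparisons held no differences between replicate numbers, so that test does not cover the spread seen here.

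Same-numbered libraries deviated together from their group means (r 0.608 to 0.872 over 15 pairs and 12831 genes). The number also coincides with the deposited batch, so the numbers pair the libraries. The 30 other pairs had r of -0.817 to 0.457. Deviations cancel out within a group, which lowers r between different numbers, so that range is not separate support. The 10 clock genes are all described. Named from the other lists are the called genes, and Per1, Npas2, Tef, Hlf and Bhlhe41, and by likeness the 5 highest and 5 lowest of the genes with a mean of at least 5 CPM. Fkbp5, Cirbp, Hspa1a, Hspa1b and the genes named between dosing groups were chosen after their values were seen. Members and lists were chosen with earlier results of these data known.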

Additional observations from a re-analysis of the deposited data

Results flagged for a closer look

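Nr1d1 in all nuclei stood at 12.3 CPM in nonTV:Malat1 replicate 1, apart from the other 3 replicate 1 libraries at 8.87 to 9.30 CPM. It was 1 of 20 sets of 4 libraries in which the gap between the farthest library and its neighbour was tested, and chance gives about 1 in 20. Cry2 changed differently in oligodendrocytes and neurons between replicates 5 and 1, by log2 0.41 ± 0.12 (limma adjusted p = 0.0398, n = 4 libraries each), higher in oligodendrocytes relative to neurons. It was 1 of 57 member tests, beside 2.68% of all tests called, and it was lost in 7 of 15 alternatives, with an adjusted p of up to 0.150.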

How the results depend on the processing

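Of the 21 called results between replicate numbers, 303 of 367 alternatives kept the call, 64 lost it and 0 changed direction. Of 23 results between replicate numbers in all nuclei that were not called, 7 of 391 alternatives made a call. Single uncalled tests by class are not counted here. The 50 tests between dosing groups in all nuclei stayed uncalled in 850 of 850. Except for the block, these alternatives had no term for the replicate number. The main dosing fit, which also had none, called 0 of 21409 genes in each comparison and so missed Malat1. The count of uncalled alternatives therefore does not show that the clock genes were alike between groups. With a block for the replicate number, 0 clock genes were called between dosing groups in all nuclei or by class, and the block changed no call of a clock gene.

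Leaving out 1 library at a time gave 2 to 4 clock genes called for replicate 4 against 1 in all nuclei (3 with all libraries), 3 to 4 for 5 against 1 (3) and 0 to 3 for 5 against 4 (1). By class it gave 3 to 5 (5), 4 to 7 (6) and 0 to 3 (2), and 0 to 1 for the class differences (1). It gave 0 to 0 for each dosing comparison, again in fits without a term for the replicate number. Total counts, with or without Malat1, gave 0 for 5 against 4 in all nuclei. By class, DESeq2 and the unfiltered counts each gave 3 for 4 against 1, and nuclei of at least 1000 UMIs gave 1 for 5 against 4 and 0 for the class differences. Unfiltered counts gave 1 between OTV:Malat1 and Malat1 ASO by class. The causes of these changes were not tested, and neither was the part of the smaller number of libraries or nuclei. Single calls gained by leaving out 1 library were Nr1d2 for 4 against 1 (ATV:BACE1 replicate 4, adjusted p = 0.0365), Clock for 5 against 1 (ATV:BACE1 replicate 1, 0.0415), Per3 for 5 against 1 and 5 against 4 (ATV:BACE1 replicate 5, 0.0292 and 0.0297), and Dbp for 5 against 1 (0.0487) and 5 against 4 (0.0488) and Nr1d1 for 5 against 4 (0.0477), all 3 without OTV:Malat1 replicate 4.

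The genes called among all genes were 7122, 6914 and 3893, and 4348 to 7110, 4568 to 7124 and 372 to 4088 with 1 library left out. The first was lowest without ATV:BACE1 replicate 4 and the second without nonTV:Malat1 replicate 1. For 5 against 4, the lowest again without ATV:BACE1 replicate 4, the number was 2325 without the ATV:BACE1 library of replicate 5. It was 2155 and 1933 when the OTV:Malat1 library of replicate 4 or 5 was removed, and 2500 and 2517 when the Malat1 ASO library of replicate 1 or 5 was. Of these calls 50.4, 53.8 and 53.3% were higher, against 37.5, 61.2 and 80.3% with total counts and 36.3, 63.2 and 84.0% when Malat1 was also left out. In neurons the shares of 50.2, 53.4 and 51.4% became 39.1, 70.9 and 86.1% with total counts and 37.7, 73.1 and 89.1% without Malat1. Depth limits the smaller classes, where Per2 in endothelium gave 4 UMIs over 11 libraries.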
